A study of Mus musculus with 8 samples.

Results

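Inhibitory and paired receptors of myeloid cells were examined in bone marrow-derived macrophages (BMDMs), macrophages grown from bone marrow with macrophage colony-stimulating factor. The set holds 10 genes, found by their symbols among the 54532 genes of the deposited count table, and all 10 were listed. RNA was sequenced from 4 WT and 4 Gsdmd-/- libraries of BMDMs after 6 days of differentiation and without treatment. By the study's methods, the WT mice were purchased young adult female C57BL/6J animals, and the Gsdmd-/- mice, knockouts of the pore-forming protein gasdermin D, were a gift from another laboratory whose strain background was not given. The groups thus came from different sources, and genotype and source of the mice cannot be told apart. Neither the labels nor the methods say whether each library came from its own mouse, so p-values measure only the spread between these libraries.

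Paired receptors are families of neighbouring genes in which inhibitory and activating receptors have similar ectodomains. The inhibitory members carry tyrosine motifs in their cytoplasmic tails that recruit phosphatases such as SHP-1 (Ptpn6) and SHP-2 (Ptpn11), or, for CD200R1, the adaptors DOK2 and DOK1. The activating members have short tails and signal through adaptors such as DAP12 (Tyrobp), which recruits the kinase SYK. In macrophages, such receptors set the threshold for phagocytosis and cytokine release. The inhibitory genes of the set are Cd200r1, Cd300a, Cd300lf, Pilra, Sirpa and Lilrb4a, and the activating genes are Cd200r2, Cd200r4, Cd300lb and Pilrb1. By the GENCODE M21 annotation of GRCm38 (mm10), Cd200r1, Cd200r4 and Cd200r2 follow each other on chromosome 16 (44765736 to 44915840). Cd300a, Cd300lb and Cd300lf lie on chromosome 11 (114890041 to 115133992), and Pilra and Pilrb1 on chromosome 5 (137821952 to 137858106). Sirpa lies on chromosome 2 (129592835 to 129632228) and Lilrb4a on chromosome 10 (51490956 to 51496611).

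The promoters of 7 of the 10 genes were matched by symbol in a RefSeq table for GRCm38.p6, as windows from 250 bases before to 50 bases after the start of the gene. Those of Pilra and Pilrb1 are shown because these genes varied together between the WT libraries, and those of Cd200r2 and Cd300lb because their libraries did not overlap between the genotypes. Each is printed 5′ to 3′ on the strand of its gene, with GAGGAA or its reverse complement TTCCTC, a core of sites for the myeloid ETS factor PU.1, in capitals. Pilra (minus strand, chr5:137836229-137836528), Pilrb1 (minus strand, chr5:137858000-137858299), Cd200r2 (plus strand, chr16:44866847-44867146) and Cd300lb (minus strand, chr11:114934322-114934621) read as follows.
Pilra: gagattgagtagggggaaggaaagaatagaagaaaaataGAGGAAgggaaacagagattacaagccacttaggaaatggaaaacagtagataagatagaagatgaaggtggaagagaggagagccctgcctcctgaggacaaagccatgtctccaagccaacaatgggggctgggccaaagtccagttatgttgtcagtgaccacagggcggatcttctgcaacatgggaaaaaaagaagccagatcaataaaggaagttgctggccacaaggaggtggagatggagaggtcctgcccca
Pilrb1: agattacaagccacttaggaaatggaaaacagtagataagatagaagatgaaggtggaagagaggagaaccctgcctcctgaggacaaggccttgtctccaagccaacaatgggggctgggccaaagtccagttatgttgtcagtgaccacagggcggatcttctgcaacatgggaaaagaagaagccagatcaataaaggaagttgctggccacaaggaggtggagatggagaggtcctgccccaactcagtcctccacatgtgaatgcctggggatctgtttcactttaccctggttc
Cd200r2: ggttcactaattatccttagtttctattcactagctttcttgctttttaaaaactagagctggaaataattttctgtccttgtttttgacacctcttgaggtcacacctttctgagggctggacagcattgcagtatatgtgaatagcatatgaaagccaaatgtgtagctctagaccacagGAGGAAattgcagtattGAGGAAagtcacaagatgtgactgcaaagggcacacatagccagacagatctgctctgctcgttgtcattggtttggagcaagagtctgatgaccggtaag
Cd300lb: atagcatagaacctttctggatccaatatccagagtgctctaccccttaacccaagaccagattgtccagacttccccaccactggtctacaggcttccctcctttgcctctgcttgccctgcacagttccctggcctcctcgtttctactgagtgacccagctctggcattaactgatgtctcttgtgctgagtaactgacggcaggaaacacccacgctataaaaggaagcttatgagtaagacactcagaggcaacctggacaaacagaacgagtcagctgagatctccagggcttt
Pilra and Pilrb1 matched at 242 of 246 aligned bases (98.4%), from base 55 of the Pilra window and base 1 of that of Pilrb1. The aligned stretch holds no GAGGAA on either strand, and the single match of Pilra lies ahead of it. Of the 7 promoters, 4 held the motif on either strand, while 28.3% of all 32851 promoters of this length did.

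Total counts ranged from 14935114 to 16794810 per library. Gsdmd was at 75.3 ± 14.1 CPM (the read count scaled to library size with TMM factors) in WT and 16.2 ± 1.56 CPM in the Gsdmd-/- group (± SD, n = 4 each), and a count per gene does not show which exons the remaining reads came from. WT 2 and WT 3 stood apart from the other 6 libraries on component 1 of a principal component analysis (scores of 45.4 and 38.8, against -25.9 to -7.19), so results that rest on them are given with and without them. All 8 macrophage markers, including Adgre1, Csf1r and Cd68, were above 1 CPM in every library. Of these markers, Adgre1 did not overlap between the genotypes, at 303 ± 23.3 CPM over WT and 258 ± 13.8 CPM over Gsdmd-/- libraries (± SD, n = 4 each, log2 ratio -0.24, unadjusted p = 0.0182, adjusted p = 0.310 from edgeR), and the other 7 overlapped. Over all libraries, the summed markers of neutrophils lay between 4.44 and 6.91 CPM, almost all from S100a8, and of lymphoid cells between 0.698 and 2.99 CPM. Those of stromal and endothelial cells lay between 29.5 and 81.6 CPM, mostly from Kdr. The osteoclast markers summed to 199 to 335 CPM over WT and 125 to 222 CPM over Gsdmd-/- libraries, with overlap. The dendritic cell markers, mostly Itgax, summed to 2230 to 2370 and 1670 to 2100 CPM, without overlap. Among these markers Itgax alone had no overlap between the genotypes, so the sum speaks mostly for this gene. Ly6g of neutrophils, Mcpt4 of mast cells, Ncr1 of natural killer cells and Siglech of plasmacytoid dendritic cells had no count in any library, which allows up to 0.199 CPM. The 4 monocyte markers summed to 47.0, 4.89, 4.03 and 44.2 CPM in WT libraries 1 to 4 and to between 20.4 and 27.1 CPM in the Gsdmd-/- libraries. The sum of the mast cell and basophil markers was 72.4, 12.4, 10.5 and 61.9 CPM in the WT and 46.4 to 67.8 CPM in Gsdmd-/- libraries, almost all of it from Kit. In such bulk samples, fewer cells of a type and less RNA per cell cannot be told apart.

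The receptors were expressed at very different levels. Per kilobase of exon, Sirpa, the receptor for the "don't eat me" signal CD47, had the highest level in WT macrophages, 312.5 ± 30.2 CPM per kb (SD, n = 4). Lilrb4a (79.8 ± 9.10), Cd300lb (74.4 ± 3.89), Cd200r4 (66.4 ± 23.6) and Cd200r1 (65.2 ± 5.29 CPM per kb, SD, n = 4) followed, and neighbours in this order did not differ beyond their spread. Cd300lf (29.1 ± 10.7) and Cd300a (26.2 ± 4.24 CPM per kb) came next and overlapped. Pilra had 12.6 ± 8.45 CPM per kb, Pilrb1 1.46 ± 1.04 and Cd200r2 0.314 ± 0.158 (± SD, n = 4 each). In Gsdmd-/- macrophages Sirpa again led with 298 ± 12.7 CPM per kb, and Cd200r2 was again last with 0.805 ± 0.0902, within the spread of Pilrb1 (1.07 ± 0.405). In WT, too, the last 2 overlapped within 1 SD. Cd200r4 (85.7 ± 8.26) was then above Cd200r1 (68.4 ± 5.57) and Cd300lb (64.0 ± 2.23 CPM per kb).

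None of the 10 receptors had an adjusted p under 0.05 between the genotypes (edgeR quasi-likelihood test, Benjamini-Hochberg over 12911 genes), where 0.349% of all genes tested did. The count was also 0 with DESeq2, which called 2.26% of all genes, and with limma voom, which called 0.333%. At an unadjusted p under 0.05 there were 2 receptors, against 12.0% of all genes, with Cd200r2 higher (4.74% of all genes were) and Cd300lb lower (7.30% of all genes were) in Gsdmd-/- macrophages. DESeq2 and limma voom gave the same 2 receptors at this level, beside 12.2% and 11.5% of all genes. With a log2 ratio of at least 0.5 in size as well, 1 receptor was higher (1.54% of all genes) and 0 were lower (3.28%, and 4.83% in either direction). Cd200r2 and Cd300lb were also the 2 receptors whose libraries did not overlap between the genotypes (7.60% of all genes, made up of 3.48% higher and 4.12% lower). Without WT 2 and WT 3, 4 receptors had an unadjusted p under 0.05, against 13.1% of all genes. The log2 ratio (log2 fold change) of Gsdmd-/- over WT had a median over the receptors of 0.10, with 6 above and 4 below 0, and over all genes tested of -0.01. When WT 2 and WT 3 were left out, 4 receptors were above and 6 below 0, with a median of -0.01 for the receptors and for all genes. All 10 genes passed the filter on low counts. Cd200r2 reached its minimum in 1 WT and 4 Gsdmd-/- libraries and so entered through the group where it was high.

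**Figure D1:**
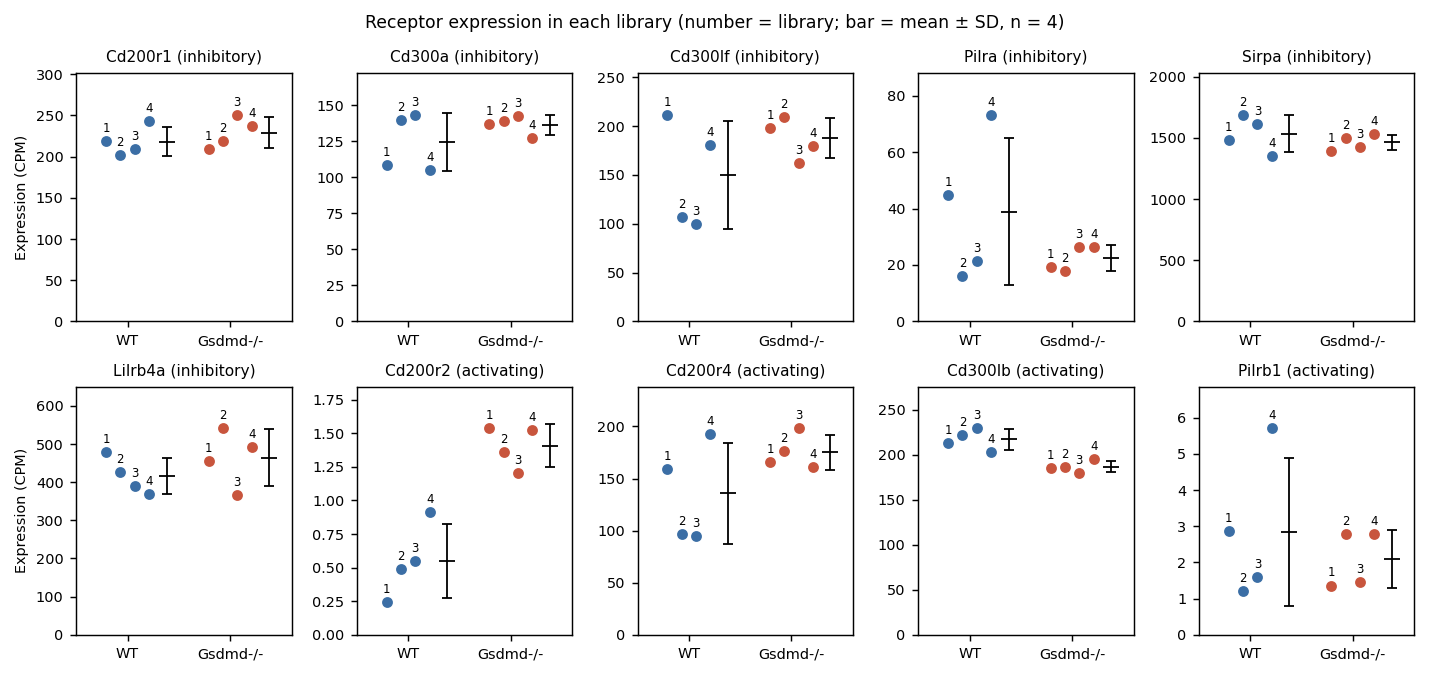
Expression of the 10 receptor genes in CPM on linear axes from 0, with 1 point per library (blue WT, red Gsdmd-/-, numbered by replicate) and the mean ± SD of 4 libraries beside each group. WT and Gsdmd-/- libraries are separate for Cd200r2 and Cd300lb and overlap for the other 8 genes.

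**Figure D2:**
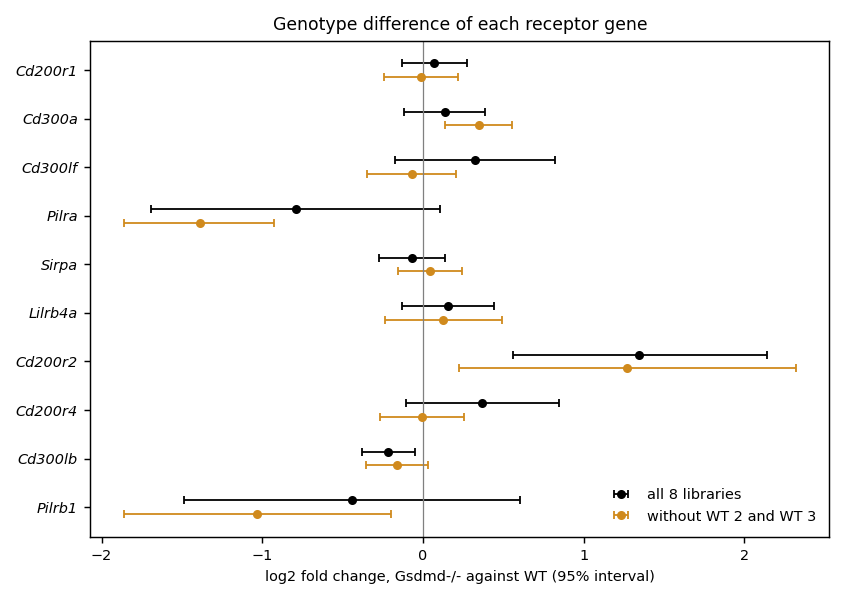
Log2 ratio of each receptor gene in Gsdmd-/- against WT macrophages with its 95% interval, from all 8 libraries (black) and without WT 2 and WT 3 (orange). With all libraries the intervals of Cd200r2 and Cd300lb exclude 0, and without the pair those of Cd300a, Pilra, Cd200r2 and Pilrb1 do.

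The CD200 receptors were examined first. Cd200r1 encodes the inhibitory receptor for CD200. Its level was 219, 202, 209 and 243 CPM in WT libraries 1 to 4 and 209, 219, 251 and 237 CPM in Gsdmd-/- libraries 1 to 4. The groups overlapped, and the log2 ratio was 0.07 (95% interval -0.13 to 0.27, adjusted p = 0.804 from the edgeR test). Cd200r4 encodes an activating relative that pairs with DAP12. It was at 159, 96.9, 94.5 and 193 CPM in the WT and 165, 176, 199 and 161 CPM in Gsdmd-/- libraries. WT 2 and WT 3 were the lowest, and WT 1 and WT 4 lay in or near the Gsdmd-/- range. The log2 ratio of 0.37 (SE 0.214, adjusted p = 0.545 from edgeR) became -0.01 without WT 2 and WT 3. There were 1.38, 2.09, 2.21 and 1.26 counts of Cd200r1 per count of Cd200r4 in WT libraries 1 to 4, and 1.24 to 1.48 in the Gsdmd-/- libraries.

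Cd200r2, another activating relative, had few reads. It had 4, 8, 9 and 15 counts in WT libraries 1 to 4 and 26, 23, 19 and 23 counts in Gsdmd-/- libraries 1 to 4. Every Gsdmd-/- library was above every WT library, at 1.41 ± 0.158 against 0.549 ± 0.277 CPM (± SD, n = 4 each). The log2 ratio was 1.35 (SE 0.355, 95% interval 0.56 to 2.14, unadjusted p = 0.00336, adjusted p = 0.178 from edgeR). Only 1 WT library but 4 Gsdmd-/- libraries reached the minimum of the filter. The gene was thus tested because it was high in Gsdmd-/-, and the test and the lack of overlap only describe these libraries. The adjusted p lay between 0.0635 and 0.463 over the alternatives that could test the gene. Cd200r3, the next gene of the cluster, was at 3.16, 0.978, 1.22 and 2.01 CPM in the WT and 4.09, 2.90, 2.54 and 2.12 CPM in Gsdmd-/- libraries, with overlap (log2 ratio 0.66, adjusted p = 0.527 from edgeR). WT 2 and WT 3 were its lowest libraries, and its ratio was 0.17 without both and 1.05 without WT 1. Of the 100-base windows in the Cd200r2 transcripts, 0.666% are also in those of Cd200r4. By the root mean square difference of centred log2 CPM over the 8 libraries, the gene with the pattern most like that of Cd200r2 was Mir142hg (0.279).

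In the CD300 family, whose receptors bind lipids exposed on dying cells, Cd300lb encodes an activating receptor. It was at 213, 221.5, 230 and 203 CPM in the WT and 185, 186.5, 180 and 195.5 CPM in Gsdmd-/- libraries. All Gsdmd-/- libraries were below all WT libraries, but the difference was small, with a log2 ratio of -0.22 (SE 0.0744, 95% interval -0.38 to -0.05, unadjusted p = 0.0152, adjusted p = 0.295 from edgeR). Without WT 2 and WT 3 it was -0.16 (adjusted p = 0.493). Adgre1 and the dendritic cell marker sum, mostly Itgax, were likewise lower in every Gsdmd-/- library, and their part in this result was not tested. The processed pseudogene Gm11699, which overlaps Cd300lb on the opposite strand, had 6 to 43 counts per library, against at least 2836 for Cd300lb. Rps6ka1 (0.0223) and Ppp1r9b (0.0402) had the patterns most like that of Cd300lb by the same measure.

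Cd300a encodes an inhibitory receptor for phosphatidylserine. Its level was 109, 140, 144 and 105 CPM in the WT and 137, 139, 143 and 127 CPM in Gsdmd-/- libraries, so that WT 2 and WT 3 lay at the upper end of the Gsdmd-/- libraries while WT 1 and WT 4 were lower. The log2 ratio was 0.13 (adjusted p = 0.692 from edgeR) and moved to 0.35 without WT 2 and WT 3 (95% interval 0.14 to 0.56, adjusted p = 0.128). Cd300lf encodes an inhibitory receptor that is also the entry receptor of murine norovirus. It had the opposite order among the WT libraries, with 212, 107, 99.5 and 181 CPM in the WT and 198, 209, 162 and 180 CPM in the Gsdmd-/- group. Its log2 ratio was 0.32 (SE 0.225, adjusted p = 0.616 from edgeR) and -0.07 without WT 2 and WT 3. Of the other CD300 genes, Cd300c2 (364 ± 44.5 CPM in the WT and 376.5 ± 35.0 in Gsdmd-/-) and Cd300ld (126 ± 10.9 and 117 ± 14.7 CPM, SD, n = 4 each) had the highest levels, and both overlapped between the genotypes. Cd300ld3, Cd300ld4 and Cd300lg averaged between 0.858 and 6.18 CPM in either genotype, with log2 ratios of 0.17, -0.81 and -0.01 (adjusted p of at least 0.499). With 1 library left out, these ran from -0.18 (without WT 3) to 0.37 for Cd300ld3, from -1.05 to -0.38 (without WT 3) for Cd300ld4 and from -0.12 to 0.15 for Cd300lg, so that the first and the last had no fixed direction. With WT 2 and WT 3 left out, the log2 ratios were 0.13 for Cd300c2, 0.00236 for Cd300ld, -0.11 for Cd300ld3, -0.62 for Cd300ld4 and 0.05 for Cd300lg.

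Among the paired immunoglobulin-like type 2 receptors, Pilra encodes the inhibitory and Pilrb1 the activating partner. Pilra was at 44.7, 16.1, 21.3 and 73.3 CPM in WT libraries 1 to 4 and 19.3, 18.0, 26.2 and 26.5 CPM in Gsdmd-/- libraries 1 to 4. The WT libraries thus spanned the Gsdmd-/- libraries, with WT 1 and WT 4 above and WT 2 below all of them. The log2 ratio was -0.79 (SE 0.405, 95% interval -1.69 to 0.11, adjusted p = 0.490 from edgeR). Without WT 2 and WT 3 it was -1.39 (SE 0.207, adjusted p = 0.0143, where 1.21% of all genes had an adjusted p under 0.05), and without WT 4 it was -0.28. The monocyte markers were likewise high in WT 1 and WT 4 and low in WT 2 and WT 3, and their part in this result was not tested. Zcwpw1, which overlaps Pilra on the opposite strand and shares 11.3% of its 100-base windows, had 18 to 39 counts per library, against 264 to 1204 for Pilra.

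Pilrb1 had 47, 20, 26 and 94 counts in WT and 23, 47, 23 and 42 counts in Gsdmd-/- libraries. WT 4 was the highest and WT 2 the lowest of all, and the groups overlapped (log2 ratio -0.44, SE 0.472, adjusted p = 0.760 from edgeR). Without WT 2 and WT 3 the log2 ratio was -1.03 (SE 0.369, adjusted p = 0.255 from edgeR). The direction turned without WT 4, to 0.15. In the WT libraries there were 15.6, 13.2, 13.4 and 12.8 counts of Pilra per count of Pilrb1, a narrow range beside that of either gene, and in the Gsdmd-/- libraries 14.1, 6.47, 18.0 and 9.50. Pilrb2, the next activating gene, was low in the same WT libraries, with 3.90, 1.04, 0.855 and 4.20 CPM in the WT and 1.24, 0.591, 1.46 and 0.862 CPM in Gsdmd-/- libraries (log2 ratio -1.26, unadjusted p = 0.0419, adjusted p = 0.393 from edgeR, and -1.96 with an adjusted p of 0.0199 without WT 2 and WT 3). Of the 100-base windows of Pilrb1, 2.55% are also in Pilrb2, so some reads of the pair may not be separable.

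Sirpa was at 1483, 1690, 1613 and 1353 CPM in the WT and 1396, 1501, 1428 and 1531 CPM in Gsdmd-/- libraries. All Gsdmd-/- libraries lay within the WT range. Its log2 ratio of -0.07 had a 95% interval from -0.27 to 0.14 (adjusted p = 0.814 from edgeR), and it was 0.04 without WT 2 and WT 3. Its activating relatives Sirpb1a, Sirpb1b and Sirpb1c had log2 ratios of -0.08, -0.18 and -0.04, with adjusted p of at least 0.748, and of -0.18, -0.32 and -0.34 without WT 2 and WT 3.

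Lilrb4a encodes an inhibitory immunoglobulin-like receptor of macrophages and mast cells. It was at 479, 428, 391 and 370 CPM in the WT and 456, 542, 367 and 493 CPM in Gsdmd-/- libraries, with overlap (log2 ratio 0.16, 95% interval -0.13 to 0.44, adjusted p = 0.687 from edgeR). The ratio was 0.0677 without Gsdmd-/- 2 and 0.255 without Gsdmd-/- 3. Its neighbour Lilr4b was at 1135 ± 179 CPM in the WT and 1338 ± 93.5 CPM in the Gsdmd-/- group (± SD, n = 4 each, log2 ratio 0.24, adjusted p = 0.471 from edgeR, and 0.07 without WT 2 and WT 3). Lilrb4a shares 35.2% of its 100-base windows with other genes, most of them with the overlapping gene Gm49339, which had 10 to 33 counts per library, so its level is uncertain where reads could not be placed. Of further immunoglobulin-like receptors, Lilra5, Lilra6, Pira2 and the collagen receptor Lair1 had log2 ratios of -0.91, -0.28, -0.13 and 0.17 (adjusted p of at least 0.473). These were -0.15, -0.62, -0.23 and 0.13 without WT 2 and WT 3, while Lilra6 was at -0.08 without WT 1 and Pira2 at -0.06 without Gsdmd-/- 1.

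The spread among the WT libraries was wider than the difference between the genotypes for several receptors. The standard deviation of log2 CPM in WT had a median of 0.375 over the receptors and 0.236 over all genes tested, and in Gsdmd-/- libraries the medians were 0.144 and 0.157. WT 2 and WT 3 were both below WT 1 and WT 4 for 5 receptors (Cd200r1, Cd300lf, Pilra, Cd200r4 and Pilrb1; 28.7% of all genes) and both above them for 3 (Cd300a, Sirpa and Cd300lb; 29.4% of all genes). Among the 16 tested relatives of the same families, the counts were 8 and 2.

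**Figure D3:**
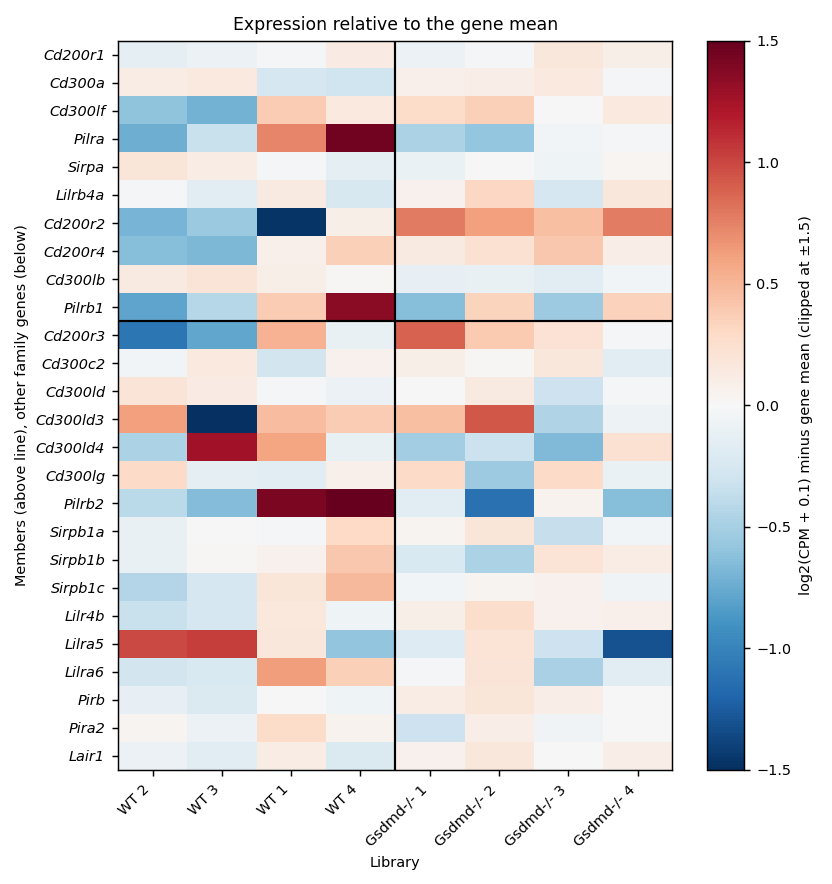
Log2(CPM + 0.1) minus the mean of the gene, clipped at ±1.5, in the 8 libraries (columns, WT left of the line in the order WT 2, WT 3, WT 1, WT 4) for the 10 receptors (above the line) and 16 other genes of their families (below it). WT 2 and WT 3 are blue for Cd300lf, Pilra, Cd200r4 and Pilrb1, where WT 1 and WT 4 are red.

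The genes around the receptors were taken from lists of relatives, ligands, adaptors, effectors and other paired receptors. Of 85 genes listed, 77 were found and 64 tested, and none had an adjusted p under 0.05 (edgeR), while 2 were higher and 7 lower at an unadjusted p under 0.05, where 4.74% and 7.30% of all genes were (12.0% in either direction). DESeq2 gave 2 genes (Ptpn6 and Lcp2) and limma voom 0 with an adjusted p under 0.05, beside 2.26% and 0.333% of all genes. Their log2 ratios had a median of -0.10. The ligand Cd47 was at 104.5 ± 6.42 CPM in the WT and 111 ± 3.23 CPM in the Gsdmd-/- group, and Cd200 at 44.4 ± 10.9 and 48.6 ± 3.87 CPM (± SD, n = 4 each), both with overlap and adjusted p of at least 0.702. Their log2 ratios of 0.09 and 0.13 were 0.16 and 0.46 without WT 2 and WT 3. Fibronectin (Fn1), a ligand of Lilrb4a, had 80.2, 7.27, 5.86 and 94.9 CPM in WT libraries 1 to 4 and 13.3 to 43.0 CPM in the Gsdmd-/- libraries, with a log2 ratio of -0.71 that was -1.60 without WT 2 and WT 3 and -0.11 without WT 4. None of the 7 ligands tested passed at an unadjusted p under 0.05. Cd99, a ligand of PILR proteins, was not found by its symbol. Of the adaptors, Tyrobp had a log2 ratio of -0.04, Fcer1g of 0.21 and Hcst of 0.43, with adjusted p of at least 0.506. WT 2 and WT 3 were the lowest libraries of Fcer1g and Hcst, and without both the ratios were 0.03, -0.09 and 0.10.

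All 7 inhibitory effectors had log2 ratios below 0 with all libraries, with a median of -0.17, but that of Dok2 was 0.05 without WT 4. Ratios below 0 were also found for 45 of the 64 related genes and 6653 of all 12911 genes tested. The libraries of 2 effectors did not overlap between the genotypes and were lower in Gsdmd-/- macrophages, as for 4.12% of all genes. Whether the effectors differ from other genes was not tested. Ptpn6, which encodes SHP-1, was at 113, 121, 132 and 122 CPM in the WT and 86.4, 83.0, 95.1 and 92.4 CPM in Gsdmd-/- libraries. Its log2 ratio was -0.45 (SE 0.0812, 95% interval -0.63 to -0.27, adjusted p = 0.0564 from edgeR), and the adjusted p ran from 4.17e-05 with DESeq2 to 0.260 over the alternatives. Ptpn11, which encodes SHP-2, averaged 143.5 ± 4.94 CPM over WT and 123 ± 5.26 CPM over Gsdmd-/- libraries (± SD, n = 4 each, log2 ratio -0.22, adjusted p = 0.269 from edgeR). Without WT 2 and WT 3 the log2 ratios of these phosphatase genes were -0.40 and -0.22. The part of the lower Adgre1 and dendritic cell marker sum (mostly Itgax) in these results, and in that of Lcp2, was not tested. Inpp5d, the lipid phosphatase SHIP-1, and the adaptors Dok1 and Dok2 had log2 ratios of -0.09, -0.20 and -0.11 (-0.21, -0.42 and -0.36 without WT 2 and WT 3), and their libraries overlapped. Inpp5d was at -0.00536 without WT 1, and Dok1 at -0.0429 without WT 4. All 7 effectors were below 0 without WT 2 and WT 3 as well, with a median of -0.33, beside 40 of 64 related genes and 6838 of 13288 genes tested. WT 2 and WT 3 were both below WT 1 and WT 4 for 4 effectors (28.7% of all genes) and both above them for 0.

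On the activating side, Syk had a log2 ratio of -0.06 (adjusted p = 0.835 from edgeR), and of -0.05 without WT 2 and WT 3. Lcp2, the adaptor SLP-76, was at 81.7 ± 1.63 CPM in the WT and 69.2 ± 3.19 CPM in the Gsdmd-/- group without overlap (log2 ratio -0.24, adjusted p = 0.233 from edgeR), and Plcg2 had a log2 ratio of -0.22 (adjusted p = 0.382). Pirb, the inhibitory paired immunoglobulin-like receptor B, was at 251 ± 15.6 CPM in the WT and 288 ± 14.8 CPM in the Gsdmd-/- group (± SD, n = 4 each, log2 ratio 0.20, adjusted p = 0.367 from edgeR). Among receptors of other families, Cd33 had a log2 ratio of 0.40 (adjusted p = 0.332), Siglecf of -0.54 (adjusted p = 0.247) and Cd72 of -0.68 (adjusted p = 0.274). In the fit without WT 2 and WT 3, the log2 ratios were 0.20 for Cd33, -0.20 for Siglecf, 0.13 for Pirb, -0.33 for Plcg2, -0.24 for Lcp2 and -0.92 for Cd72 (adjusted p of at least 0.0902). With 1 library left out, the small ratios of Cd300c2, Sirpb1a, Sirpb1c, Tyrobp and Syk also changed direction, within a range of -0.17 to 0.15.

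**Figure D4:**
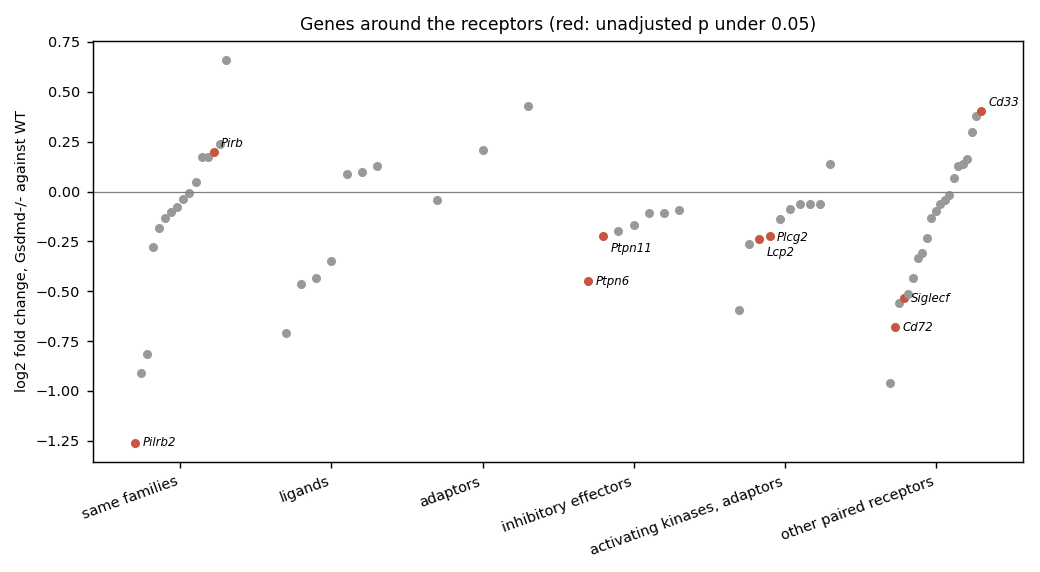
Log2 ratio in Gsdmd-/- against WT macrophages of the 64 tested genes around the receptors, grouped by role, with 1 point per gene and red for an unadjusted p under 0.05. All 7 inhibitory effectors are below 0 with all 8 libraries, with Ptpn6 lowest at -0.45, and Dok2 turns to 0.05 without WT 4.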

How the data were processed

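RNA from 8 libraries of BMDMs (4 WT, 4 Gsdmd-/-) was sequenced from TruSeq libraries. The authors deposited 1 table of raw read counts per gene, not normalized, with genome build mm10 named in the submitters' processing notes. The aligner, the counting tool, its strand setting and the annotation are not given in the sources used here. All values were checked to be whole numbers. Of 54532 genes, 54495 were found in GENCODE M21, which gave positions and exon lengths.

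Counts were scaled by TMM, filtered with filterByExpr (12911 genes left) and tested two-sided with the quasi-likelihood test of edgeR 4.0.16 (R 4.3.3), genotype as the only term. Standard errors are the log2 fold change over the square root of F, and intervals use the t distribution. The test was checked on simulated data. The depth of 14935114 to 16794810 counts per library makes 3 counts, the most that a count of 0 allows, between 0.177 and 0.199 CPM, for counting error only.

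The alternatives were DESeq2 1.42.0, limma 3.58.1 (voom, since the study names limma), upper-quartile or RLE factors, dropping the filter, a minimum of 10 counts in all libraries, each library left out, WT 2 and WT 3 left out, and a block for the replicate number. Members of the set, lists and alternatives were chosen with earlier results of these data known. The rule for naming genes took all 10 receptors, every gene of the related lists (not the marker lists) with an unadjusted p under 0.05, the main ligands, adaptors and effectors, relatives averaging at least 1 CPM, and the 2 genes most like each receptor with an unadjusted p under 0.05, of which 1 is not reported here. Marker lists also covered dendritic, stromal and osteoclast genes.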

Additional observations from a re-analysis of the deposited data

Results flagged for a closer look

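In groups of 4 libraries, 5 of 148 groups (3.38%) for the receptors and related genes held a library far from the other 3 by Dixon's ratio, where chance flags about 1 in 20, and none was a group of the 10 receptors. Cd300ld3 was at 0.916 CPM in WT 3 and 6.51 to 7.64 CPM in the other WT libraries. Lilr4b was at 1480 CPM in Gsdmd-/- 2 and 1280 to 1300 CPM in the others. Ptpn11 was at 115 CPM in Gsdmd-/- 3 and 125 to 126 CPM in the others. Cd72 was at 3.37 CPM in Gsdmd-/- 2 and 5.77 to 6.10 CPM in the others. Cd101 was at 1.10 CPM in WT 3 and 0.428 to 0.487 CPM in the other WT libraries.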

How the results depend on the processing

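Of 159 log2 ratios of the 10 receptors over the alternatives, 153 kept their direction and their side of an adjusted p of 0.05. Without WT 2 and WT 3, Pilra passed (-1.39), and Cd200r1 (-0.0121), Cd300lf (-0.0707), Sirpa (0.0426) and Cd200r4 (-0.00649) reversed. Pilrb1 ranged from -0.695 to 0.149 with 1 library left out and reversed without WT 4. The causes were not tested. Cd200r2 could not be tested with at least 10 counts in every library.

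Of all genes, 18 were higher and 27 lower at an adjusted p under 0.05. The counts were 44 and 65 without the filter, 105 and 187 with DESeq2, 53 and 108 without WT 2 and WT 3, and 8 to 28 and 5 to 56 with 1 library left out, highest without WT 4. At an unadjusted p under 0.05 and a log2 ratio of at least 0.5 in size, 199 were higher and 424 lower, against 421 and 783 without the filter, 405 higher without WT 2 and WT 3, and 155 to 318 and 297 to 704 with 1 library left out.

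For the receptors, the count at an adjusted p under 0.05 went from 0 to 1 without WT 2 and WT 3, against 0.349% and 1.21% of all genes. At an unadjusted p under 0.05 it went from 2 to 4 there, against 12.0% and 13.1% of all genes, and to 1 with at least 10 counts. With the size limit it went from 1 to 3 there, 2 without the filter, 0 with at least 10 counts and 1 to 2 with 1 library left out. For the related genes, the count at an adjusted p under 0.05 went from 0 to 1 with RLE factors (Ptpn6), 2 with DESeq2 and 4 without WT 2 and WT 3 (Fgr, Tarm1, Treml2 and Pilrb2). At an unadjusted p it went from 9 to 15 without the filter, 22 without WT 2 and WT 3, and 7 to 16 with 1 library left out, highest without WT 1. With the size limit it went from 3 to 6 without the filter, 10 without WT 2 and WT 3, and 2 to 9 with 1 library left out. Of all genes, 12.0% had an unadjusted p under 0.05 with all libraries and 13.1% without WT 2 and WT 3. In the fits without the filter, with at least 10 counts or with 1 library left out, this share was not counted.

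Replicate numbers did not pair the libraries: the correlations of same-numbered deviations were 0.0268, 0.182, 0.0412 and -0.201, and 2 of 8 libraries correlated best with their own number. With the replicate block, 9 genes were higher and 16 lower at an adjusted p under 0.05. In that fit 1 receptor had an unadjusted p under 0.05, and the share of all genes at this level was not counted. With 3 counts at up to 0.199 CPM, depth limits mainly Cd200r2 and Pilrb1.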
